A study of Mus musculus with 36 samples.

Results

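The hearts labelled cSirt4-Tg were compared after transverse aortic constriction (TAC) and after sham surgery, with vehicle in both groups. TAC is an operation that narrows the aorta and makes the left ventricle pump against a higher pressure. The 6 libraries whose titles name cSirt4-Tg, TAC and vehicle (Tg-TAC 1 to 6) and the 6 that name cSirt4-Tg, sham and vehicle (Tg-Sham 1 to 6) were chosen by their labels alone, which makes 12 of the 36 libraries of the series, and all listed genes were used. Whole-heart RNA of 6 mice per group was sequenced, and the stated aim was to find candidate routes by which reactive oxygen species of mitochondria may worsen heart muscle disease in these mice. Control mice with TAC or sham surgery and vehicle (Con-TAC and Con-Sham, 6 libraries each) were used as a second reference, and groups given MitoQ entered the model fit alone. The Tg-Sham and Tg-TAC groups share the cSirt4-Tg genotype and the vehicle. The strain, the age, the time since surgery, the promoter that drives the transgene and the pressure gradient reached in each mouse are not stated by the labels.

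Pressure overload makes heart muscle cells grow, and such growth is accompanied by the return of genes that are active in the fetal heart, among them the natriuretic peptides. Fibroblasts of the loaded heart turn into myofibroblasts, which lay down collagen under the control of transforming growth factor beta (TGF-beta). The muscle cells lower the burning of fatty acids, their main fuel, and lose part of the ion channels and calcium pumps that shape each beat.

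Sirt4 encodes a mitochondrial sirtuin and is the gene that the genotype label names. Its normalized counts were from 314 to 444 in Tg-Sham (median 386) and from 313 to 473 in Tg-TAC (median 343). The ranges overlapped, and the log2 difference of -0.064 had an exact permutation p of 0.565 (two-sided, smallest possible p 0.00216). Its values lay from 349 to 606 in Con-Sham and from 253 to 385 in Con-TAC, so the Tg libraries lay among the Con libraries and the genotype names below are those of the labels.

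Values are normalized read counts, and ranges give the lowest and the highest of 6 libraries. Differences are Tg-TAC minus Tg-Sham on the log2(value + 1) scale, which understates the change of genes with low values, with the standard error (SE) and the limma p-value adjusted over the 16275 genes tested. A gene rose or fell where that adjusted p was under 0.05. The fit used all 36 libraries, which share 1 estimate of the spread, and a second fit used the 12 Tg libraries alone. Where a gene named as called lost its call in the second fit, that adjusted p is given as the 12-library adjusted p, and where it lost its call without a single library this is stated.

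Tg-TAC 6 stood apart from the other Tg-TAC libraries. Of the 4606 genes called when it was left out, it lay on the side of the other 5 TAC libraries in 41.6%, and its median share of their difference was -12.8%, against 82.6% to 125% for each of the others measured in the same way. It lay inside the sham range for 56.4% of these genes, past that range with the other TAC libraries for 14.9% and past it on the opposite side for 28.7%. Among 21 gene lists whose other 5 TAC libraries did not overlap with sham, it was inside the sham range in 7, past it on the opposite side in 14 and with the other TAC libraries in 0. Its name carries the number 29, while those of Tg-TAC 1 to 5 carry 7 to 12. Those of Tg-Sham 1 to 3 carry 9 to 11 and those of Tg-Sham 4 to 6 carry 30 to 31. Tg-TAC 6 was the only TAC library numbered 29 to 31, beside Tg-Sham 4 to 6 and Con-Sham 4 to 6. The labels do not say what this number means, and its part in the values of Tg-TAC 6 was not tested. Tg-TAC 4 held the fewest reads, 14.8 M of a range up to 55.4 M in Tg-TAC (24.4 to 29.5 M in Tg-Sham), and markers of other tissues. Its adipocyte marker sum was 56120, against at most 17730 in the other TAC libraries and 15940 in sham, and its lymphocyte marker sum was 50640, against at most 569.9 and 489. Counts of genes and of list members are given with all libraries and without Tg-TAC 6. That library stood apart by these same values, against the TAC difference for many genes. Calls and smaller p-values gained without it, here and for single genes below, are therefore a description and not independent support. Counts of list members without Tg-TAC 4 are not given. In mean log2(value + 1), Tg-TAC 4 was the highest TAC library in the complement (11.13), matricellular (11.44), collagen (11.72) and myofibroblast lists (10.11). It was not the highest in the fetal list (11.75, highest 12.19) or the TGF-beta list (9.870, highest 9.876). Tg-TAC 4 was also the lowest TAC library in the fatty acid (11.77), TCA cycle (12.68) and respiratory chain lists (11.86). The same held for the calcium handling (11.58), ion channel (8.891) and adult sarcomere lists (15.34), but not for the adrenergic list (10.499, lowest 10.489). Over all genes, the fit without Tg-TAC 4 called 832 higher and 861 lower, against 1288 and 1428 with all libraries. The list counts of that fit are not reported here.

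TAC changed 2716 of the 16275 genes (16.7%) in hearts labelled cSirt4-Tg, 1288 upward (7.91%) and 1428 downward (8.77%). The change was at least 2-fold for 311 of the higher and 316 of the lower genes. In the 12-library fit as well, 371 genes rose (2.28%) and 326 fell (2.0%), 4.28% of all genes in either direction. Without Tg-TAC 6 the counts were 2185 (13.4%) and 2421 (14.9%), while leaving out Tg-TAC 4 or Tg-TAC 5 lowered the total to 1693 or 1718. The 6 TAC libraries lay wholly above the 6 sham libraries for 198 genes (1.22%) and wholly below for 161 (0.989%). Among the libraries with name numbers of 7 to 14 (Tg-TAC 1 to 5 against Tg-Sham 1 to 3) 1385 genes rose (8.51%) and 1461 fell (8.98%). The median log2 difference over all genes was -0.011. Each list count below stands beside 7.91% higher and 8.77% lower over all genes, and 13.4% and 14.9% without Tg-TAC 6.

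**Figure D1:**
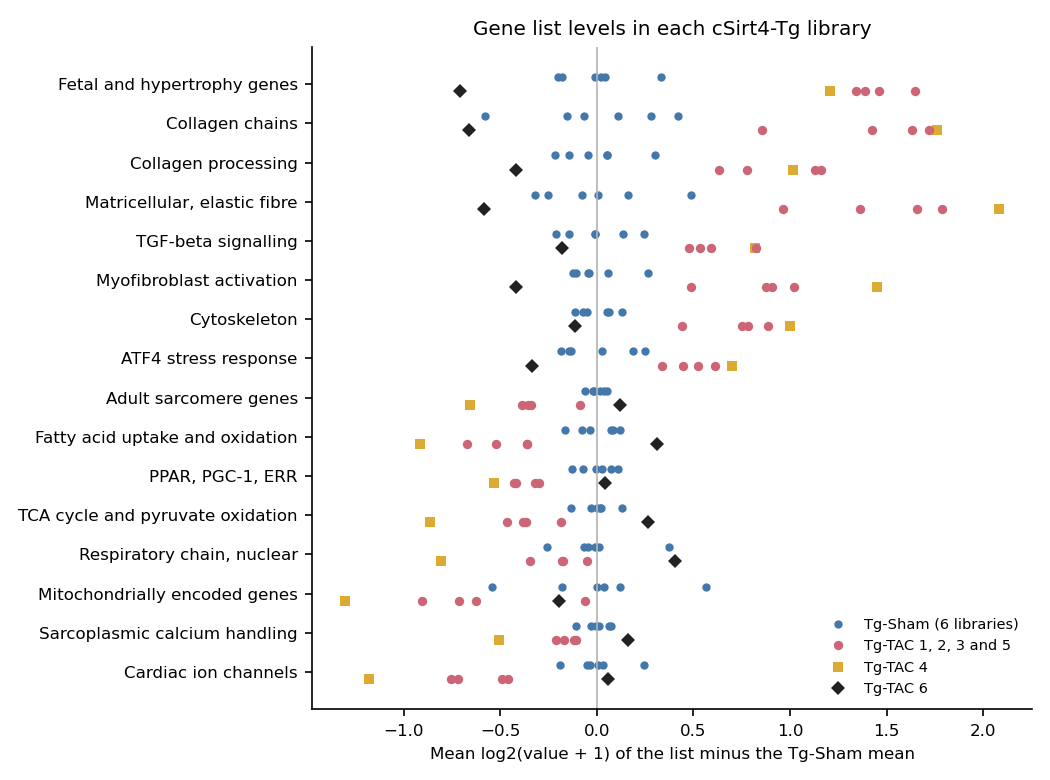
Mean log2(value + 1) of 16 gene lists in each cSirt4-Tg library, minus the mean of the 6 Tg-Sham libraries (1 point per library; blue circles Tg-Sham, red circles Tg-TAC 1, 2, 3 and 5, yellow squares Tg-TAC 4, black diamonds Tg-TAC 6). In the fetal gene list Tg-TAC 1 to 5 sit from 11.75 to 12.19 before subtraction and Tg-TAC 6 at 9.83, with sham from 10.34 to 10.87.

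Fetal genes and other genes of muscle growth were mostly higher after TAC: 13 of 21 rose, 0 fell, and 5 of the 13 were also called in the 12-library fit. The median difference of the list was 1.09, against -0.011 for all genes, and 14 members rose without Tg-TAC 6. Nppa and Nppb encode the natriuretic peptides, hormones that the strained heart releases. Nppa (ENSMUSG00000041616, mm39 chromosome 4, 148085179 to 148086536) had counts from 9398 to 38010 in Tg-Sham (median 16690) and from 3535 to 245200 in Tg-TAC (median 180600). Of the TAC libraries, 5 lay above all sham libraries and Tg-TAC 6 lay below all of them. The difference was 2.42, SE 0.71, adjusted p = 0.0193, 12-library adjusted p = 0.118, and the call was lost without Tg-TAC 1, 4 or 5 (adjusted p up to 0.0605) and held without Tg-TAC 6 (3.36, adjusted p = 2.73e-05). Counts of Nppb were from 8053 to 14980 in Tg-Sham (median 10900) and from 10170 to 44080 in Tg-TAC (median 27200), and Tg-TAC 6 alone fell within the sham range. The difference was 1.18, SE 0.41, adjusted p = 0.0447, a call that held in 2 of the 12 fits without 1 library, those without Tg-Sham 1 and without Tg-TAC 6, with an adjusted p up to 0.116 without Tg-TAC 5.

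Acta1, the skeletal muscle actin of the fetal heart, was from 10210 to 62810 in Tg-Sham (median 19560) and from 9532 to 192400 in Tg-TAC (median 117700). Tg-TAC 4 lay inside the sham range and Tg-TAC 6 below it. The difference was 1.63, SE 0.57, adjusted p = 0.0459, 12-library adjusted p = 0.212, and only the fits without Tg-Sham 1, Tg-TAC 4 or Tg-TAC 6 kept the call (adjusted p up to 0.127 without Tg-TAC 1). Fhl1, a sarcomere-associated LIM protein that takes part in stretch sensing, was from 2960 to 5560 in Tg-Sham (median 3364) and from 4102 to 22120 in Tg-TAC (median 15540), and 5 TAC libraries lay above every sham library. It rose by 1.76 (SE 0.39, adjusted p = 0.00362). Lmcd1, a LIM domain co-regulator of transcription, rose by 0.69 (SE 0.15, adjusted p = 0.00318). Enah, an actin-binding protein of the Ena/VASP family, rose from a sham range of 4442 to 7699 to 5537 to 17760 (1.06, SE 0.22, adjusted p = 0.00278). Ace, which makes angiotensin II, rose as well (1.08, SE 0.26, adjusted p = 0.00571, 12-library adjusted p = 0.0707). Ankrd1, a stress-responsive ankyrin repeat protein of the sarcomere, and Myh7, the slow myosin heavy chain, did not pass the test (0.44, SE 0.33, adjusted p = 0.375 and 0.45, SE 0.45, adjusted p = 0.524). Ankrd1 was above all sham libraries in 5 TAC libraries and below all of them in Tg-TAC 6, and without that library it passed (0.85, adjusted p = 0.0135).

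Serum response factor (SRF) binds the CArG box, a run of A and T bases between CC and GG, in muscle and stress genes, and TEAD factors bind CATTCC, both of which were searched on both strands in the 250 bases before each start site. A CArG box was found in 4 of the 20 fetal genes with a window (Acta1, Myl7, Fhl1 and Lmcd1, of which Myl7 lies outside the rule for named genes), or 20%, against 1.4% of 27025 promoters in the table and 1.18% of the tested genes. It was found in 22.2% of the adult sarcomere list, 0% of the collagens and 0% of the fatty acid list. Of the genes with a window that rose in both fits, 7 of 264 held it (2.65%). Of those that fell in both fits, 1 of 223 did (0.448%). CATTCC or its complement was found in 30% of the fetal genes, 33.3% of the adult sarcomere list and 12.6% of all promoters. It was found in 14.4% of the genes that rose and 11.2% of those that fell in both fits, against 10.8% of the tested genes. The motifs TATAAA and TGACGTCA were searched as well. They were found in 35% and 5% of the fetal genes, 13% and 1.62% of all promoters, and 6.95% and 2.62% of the tested genes. Among genes that rose in both fits the shares were 9.85% and 4.92%, and among those that fell 8.97% and 2.24%. The CArG matches are shown for the called genes that hold one, with CArG and CATTCC matches in capitals, as the RefSeq sequence of GRCm38.p6 on the strand of the gene. The windows are chr8:123894776-123895025 (minus strand) for Acta1, chrX:56779433-56779682 (plus strand) for Fhl1 and chr6:112273508-112273757 (plus strand) for Lmcd1, and their CArG boxes begin at positions -73, -102 and -215 from the start site.
Acta1: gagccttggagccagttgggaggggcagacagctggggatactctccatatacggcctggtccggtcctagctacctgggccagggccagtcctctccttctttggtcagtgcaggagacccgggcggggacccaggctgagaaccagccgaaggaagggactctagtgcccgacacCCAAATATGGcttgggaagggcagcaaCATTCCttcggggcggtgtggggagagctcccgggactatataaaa
Fhl1: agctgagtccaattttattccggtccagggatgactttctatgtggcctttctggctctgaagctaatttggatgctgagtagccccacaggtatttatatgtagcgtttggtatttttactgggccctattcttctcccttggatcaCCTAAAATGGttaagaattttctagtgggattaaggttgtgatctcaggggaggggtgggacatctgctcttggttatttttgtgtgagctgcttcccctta
Lmcd1: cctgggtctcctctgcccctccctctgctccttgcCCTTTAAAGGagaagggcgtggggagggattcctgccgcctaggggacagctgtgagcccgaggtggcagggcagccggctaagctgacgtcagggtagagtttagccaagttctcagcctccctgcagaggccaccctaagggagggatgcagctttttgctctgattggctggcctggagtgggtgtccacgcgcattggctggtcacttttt
Srf itself had counts from 2005 to 2673 in Tg-Sham (median 2444) and from 2551 to 3169 in Tg-TAC (median 2837). Its difference was 0.27, SE 0.084, adjusted p = 0.0285, 12-library adjusted p = 0.091, and the call was lost without Tg-Sham 4, Tg-Sham 5, Tg-TAC 1 or Tg-TAC 2 (adjusted p up to 0.0734). Myocd, the muscle co-activator of SRF, fell (-0.49, SE 0.13, adjusted p = 0.0117, 12-library adjusted p = 0.0601).

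The adult sarcomere genes were lower in part. Of 21 members 6 fell and none rose (median -0.26), with 1 called in the 12-library fit and 8 lower without Tg-TAC 6. Outside the list, Mylk4, a myosin light chain kinase, was from 3378 to 7356 in Tg-Sham (median 4544) and from 948 to 2768 in Tg-TAC (median 1593). The groups did not overlap, and the difference was -1.55, SE 0.32, adjusted p = 0.00234. Myh7b, a myosin heavy chain of striated muscle, fell from 3577 to 7143 in sham to 792.2 to 4520 in TAC (-1.28, SE 0.29, adjusted p = 0.00427). Among its members, Nebl, an actin-binding protein of the Z-disc, fell by 0.60 log2 units (SE 0.13, adjusted p = 0.00336). Myl2, the ventricular regulatory light chain, and Cmya5, a protein at the Z-disc and the sarcoplasmic reticulum, fell as well (-0.61, SE 0.17, adjusted p = 0.0155, 12-library adjusted p = 0.092; -0.72, SE 0.19, adjusted p = 0.00936, 12-library adjusted p = 0.0544). Myh6, the adult fast myosin heavy chain, fell (-0.70, SE 0.23, adjusted p = 0.0296, 12-library adjusted p = 0.12) and lost its call without any of Tg-Sham 1 to 4, Tg-TAC 4 or Tg-TAC 5 (adjusted p up to 0.105). Tnnt2, the cardiac troponin T, did not pass (-0.17, SE 0.13, adjusted p = 0.362). In bulk RNA, fewer muscle cells and less RNA of a gene per muscle cell cannot be told apart. The summed cardiomyocyte markers were 2107000 to 2519000 in sham and 1260000 to 2693000 in TAC, highest in Tg-TAC 6 and lowest in Tg-TAC 4, and 5 of 12 markers fell (7 without Tg-TAC 6). Their part in these differences was not tested.

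Most collagen and matricellular genes rose. Of 22 collagen chains 14 rose and 0 fell (median 0.86), 1 of them also in the 12-library fit, and 20 rose without Tg-TAC 6. Col1a1 and Col1a2, the chains of type I collagen that make up scar tissue, rose (1.12, SE 0.34, adjusted p = 0.0222, 12-library adjusted p = 0.0708; 1.05, SE 0.31, adjusted p = 0.0183, 12-library adjusted p = 0.07). Both lost the call without Tg-TAC 1 or Tg-TAC 4 and Col1a1 also without Tg-TAC 5 (adjusted p up to 0.0607 and 0.0546). Col1a1 counts were from 4007 to 8145 in Tg-Sham (median 5592) and from 4239 to 18930 in Tg-TAC (median 16300), and Tg-TAC 6 alone overlapped with sham. Col8a1 and Col8a2, short-chain collagens, were from 636 to 1767 in Tg-Sham (median 970.0) and from 442 to 7922 in Tg-TAC (median 5083), and from 8.56 to 47.2 in Tg-Sham (median 13.6) and from 15 to 1108 in Tg-TAC (median 216). They rose by 1.88 (SE 0.48, adjusted p = 0.00853, 12-library adjusted p = 0.0808) and 3.34 (SE 0.65, adjusted p = 0.00166). In both genes Tg-TAC 6 was the single library inside or below the sham range, and in Col8a2 Tg-TAC 4 was the highest. Col4a2 of the basement membrane rose (0.76, SE 0.17, adjusted p = 0.00419, 12-library adjusted p = 0.0521), and Col3a1, the type III chain, did not pass (0.82, SE 0.36, adjusted p = 0.106) until Tg-TAC 6 was left out (adjusted p = 0.0132).

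Among the enzymes and chaperones that process collagen, 12 of 22 rose and none fell (median 0.53, 18 without Tg-TAC 6). Lox, the lysyl oxidase that cross-links collagen and elastin, had counts from 214 to 394 in Tg-Sham (median 247) and from 154 to 2789 in Tg-TAC (median 1534). Tg-TAC 6 was below every sham library and the other 5 above. The difference was 2.06, SE 0.61, adjusted p = 0.0202, 12-library adjusted p = 0.058, with no call without Tg-TAC 4 or Tg-TAC 5 (adjusted p up to 0.0613). The related oxidase Loxl3 and the prolyl hydroxylase family member P3h3 rose in both fits (1.88, SE 0.46, adjusted p = 0.00639; 0.91, SE 0.19, adjusted p = 0.00273). Serpinh1, the collagen chaperone, did not pass in the fit on 36 libraries (0.55, SE 0.21, adjusted p = 0.0722) and passed in the 12-library fit (adjusted p = 0.0262).

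Matricellular and elastic fibre genes had 19 of 31 members higher and 2 lower (median 1.06), with 7 higher in both fits, and 23 higher and 3 lower without Tg-TAC 6. Eln (ENSMUSG00000029675, mm39 chromosome 5, 134731447 to 134776177), the elastin gene, was from 680.1 to 1393 in Tg-Sham (median 1033) and from 1638 to 3875 in Tg-TAC (median 2892). No TAC library reached down to the sham range, Tg-TAC 6 included. Eln rose by 1.38 (SE 0.24, adjusted p = 0.000712). Postn, the matricellular protein periostin of activated fibroblasts, was from 1175 to 3947 in Tg-Sham (median 1493) and from 871 to 39950 in Tg-TAC (median 15860), with Tg-TAC 6 below all sham libraries and the others above. Its difference was 2.84, SE 0.64, adjusted p = 0.00401, 12-library adjusted p = 0.0521. Thbs4, a thrombospondin of stressed muscle and matrix, showed the same layout of libraries (2.93, SE 0.71, adjusted p = 0.00628, 12-library adjusted p = 0.0528). Sparc, which binds collagen, Ltbp4, a latent TGF-beta binding protein, and, from the fibroblast markers, Mgp, an inhibitor of calcification, rose in both fits (1.15, SE 0.22, adjusted p = 0.00113; 0.61, SE 0.13, adjusted p = 0.00307; 1.77, SE 0.35, adjusted p = 0.00185). Ccn2, a growth factor-like target of TGF-beta, and Fn1, fibronectin, did not pass with all libraries (1.29, SE 0.49, adjusted p = 0.0678; 1.07, SE 0.46, adjusted p = 0.103) and passed without Tg-TAC 6 (adjusted p = 0.000965 and 0.00917).

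Proteoglycans had 6 of 14 members higher and 1 lower (median 0.71, 9 and 1 without Tg-TAC 6). Bgn, the small proteoglycan biglycan, rose by 1.59 (SE 0.37, adjusted p = 0.00486, 12-library adjusted p = 0.0718). Of 19 metalloproteinases and their inhibitors 3 rose and 2 fell (median 0.32, 5 and 3 without Tg-TAC 6). Mmp2, gelatinase A, and Reck, a membrane-anchored inhibitor of metalloproteinases, rose (0.86, SE 0.19, adjusted p = 0.00298; 0.66, SE 0.16, adjusted p = 0.0056). Reck was from 149.7 to 224 in Tg-Sham (median 201) and from 260.1 to 396 in Tg-TAC (median 292), without overlap between the groups. Mmp15, a membrane-type metalloproteinase, fell (-0.92, SE 0.21, adjusted p = 0.00427). Timp1, the inducible inhibitor, did not pass (1.20, SE 0.84, adjusted p = 0.339). It was 781 in the median TAC library and 38.1 in Tg-TAC 6.

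**Figure D2:**
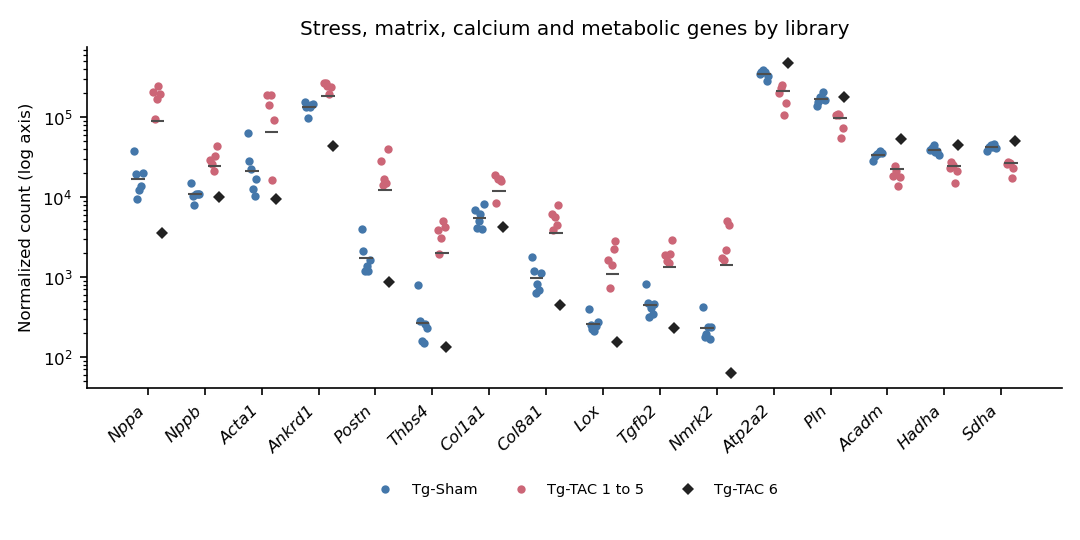
Normalized counts (log axis) of 16 stress, matrix, calcium and metabolic genes in each library, with Tg-Sham in blue, Tg-TAC 1 to 5 in red and Tg-TAC 6 as a black diamond (bars, geometric mean of 6 libraries). For Nppa, Tg-TAC 6 is at 3535, below the lowest sham value of 9398, and for Atp2a2 it is at 483600, above the highest sham value of 390300.

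In the TGF-beta list 10 of 32 members rose and 1 fell (median 0.28), and 18 rose and 1 fell without Tg-TAC 6. Among the ligands, Tgfb2 was from 316 to 812 in Tg-Sham (median 434) and from 232 to 2909 in Tg-TAC (median 1742). Again Tg-TAC 6 lay below sham and the other 5 above. Tgfb2 rose by 1.59 (SE 0.45, adjusted p = 0.0168, 12-library adjusted p = 0.0808) and lost the call without Tg-TAC 5 (adjusted p = 0.0541), and Tgfb3 rose by 1.27 (SE 0.28, adjusted p = 0.00362, 12-library adjusted p = 0.0572). Inhba, the activin A subunit, rose in both fits (1.46, SE 0.41, adjusted p = 0.0158), with Tg-TAC 4 as the single TAC library inside the sham range. Outside the list, Gdf6, a ligand of the bone morphogenetic protein branch, was among the largest increases (2.17, SE 0.54, adjusted p = 0.00709).

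The inhibitory Smad proteins, which block the receptors' signal, rose as well. Smad6 (ENSMUSG00000036867, mm39 chromosome 9, 63860358 to 63929341) was from 225 to 317 in Tg-Sham (median 282) and from 446 to 789 in Tg-TAC (median 510.3). The groups did not overlap, and Tg-TAC 6 at 537.6 lay above the TAC median. The mean was 276 ± 35.2 in Tg-Sham and 556 ± 126 in Tg-TAC (SD, n = 6 each). Smad6 rose by 0.99 (SE 0.13, adjusted p = 7.19e-06), and by 1.00 without Tg-TAC 6. Smad7 rose by 0.88 (SE 0.18, adjusted p = 0.00205).

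Of 20 genes of myofibroblast activation 9 rose and none fell (median 0.62, 12 higher without Tg-TAC 6). Meox1 (mm39 chromosome 11, 101768336 to 101785200), a homeobox factor of activated fibroblasts, was from 155 to 409 in Tg-Sham (median 279.8) and from 318 to 2067 in Tg-TAC (median 1467). Tg-TAC 6 was inside the sham range and the other 5 were above it. Meox1 rose by 2.12 (SE 0.38, adjusted p = 0.000956). Scx, a tendon and fibroblast transcription factor, and Cnn2, an actin-binding calponin, rose in both fits (1.13, SE 0.26, adjusted p = 0.0049; 0.79, SE 0.16, adjusted p = 0.00189). Acta2, smooth muscle actin, did not pass (0.64, SE 0.30, adjusted p = 0.131), and neither did Cthrc1, a secreted protein of matrix-forming fibroblasts (1.69, SE 0.92, adjusted p = 0.204), which was listed at 0 in Tg-TAC 6 and at 368 in Tg-TAC 4. Of 15 fibroblast markers 8 rose and 1 fell (9 and 1 without Tg-TAC 6), and their sum was 63640 to 86300 in sham and 74030 to 122700 in TAC. Pdgfra, a receptor that marks resident fibroblasts, was 1078 to 1615 in sham and 885 to 1569 in TAC, so its groups overlapped. The part of fibroblast number in the matrix genes was not tested.

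Calls in the inflammatory lists differed with and without Tg-TAC 6. With all libraries 3 of 29 cytokines and chemokines rose, 2 of 17 complement genes rose and none of 22 interferon-stimulated genes was called, where 7.91% of all genes rose. Leaving out Tg-TAC 6 gave 5, 8 and 5 higher genes, where 13.4% of all genes rose, and among the libraries with name numbers of 7 to 14 there were 4, 4 and 11. All libraries gave medians of 0.35, 0.38 and 0.37. None of the 20 macrophage markers was called, and 6 rose without Tg-TAC 6. Csf1r, the receptor that macrophages depend on, was 1770 to 2255 in sham and 1241 to 2518 in TAC. The macrophage marker sum was 13300 to 19410 in sham and 9539 to 26370 in TAC, lowest in Tg-TAC 6 and highest in Tg-TAC 4.

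The fuel genes moved downward. In the list for the uptake and oxidation of fatty acids 16 of 40 genes fell and 0 rose (median -0.45, against -0.011 for all genes). In the 12-library fit 1 of the 16 was called, and without Tg-TAC 6 30 fell and 1 rose. Hadha and Hadhb encode both subunits of the mitochondrial trifunctional protein, which runs the last steps of long-chain beta-oxidation. Hadha was from 33960 to 45090 in Tg-Sham (median 38360) and from 15240 to 44290 in Tg-TAC (median 24290). Tg-TAC 6 was inside the sham range and the other 5 were below it. Hadha fell by 0.64 and Hadhb by 0.65 log2 units (SE 0.18 and 0.17, adjusted p = 0.0127 and 0.00874, 12-library adjusted p = 0.0708 and 0.0655). The 2 genes lie head to head, and the RefSeq sequence between their start sites, at chr5:30154981-30155252 of GRCm38.p6, plus strand, is 272 bases long with 60.3% G and C, shown here because 1 stretch lies upstream of both genes.
Hadha and Hadhb: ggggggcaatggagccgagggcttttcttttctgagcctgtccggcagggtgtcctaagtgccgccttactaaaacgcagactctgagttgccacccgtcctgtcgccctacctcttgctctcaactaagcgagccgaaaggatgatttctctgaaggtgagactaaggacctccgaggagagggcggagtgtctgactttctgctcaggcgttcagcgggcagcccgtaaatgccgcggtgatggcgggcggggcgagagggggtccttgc
Other genes of the list were lower too. Cpt1b, the muscle carnitine palmitoyltransferase that admits fatty acids to mitochondria, fell (-1.02, SE 0.26, adjusted p = 0.00908, 12-library adjusted p = 0.0625), and Acacb, whose product malonyl-CoA inhibits that enzyme, fell as well (-0.74, SE 0.16, adjusted p = 0.00354). Cd36, the fatty acid transporter, and Acadm, the medium-chain dehydrogenase, fell by 0.39 and 0.59 on the log2 scale (adjusted p = 0.0397 and 0.0448, 12-library adjusted p = 0.15 and 0.164), but kept the call in only 3 and 2 of the 12 fits without 1 library. For Cd36 these were the fits without Tg-Sham 5, Tg-TAC 3 or Tg-TAC 6, and for Acadm those without Tg-Sham 1 or Tg-TAC 6, with adjusted p up to 0.136 and 0.144 without Tg-TAC 4.

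Regulators of these genes fell in part. Of 21 genes of the PPAR, PGC-1 and ERR group 7 fell and none rose (median -0.26, 10 lower without Tg-TAC 6). Klf15, a transcription factor of cardiac lipid use, was from 1222 to 1937 in Tg-Sham (median 1467) and from 661 to 1173 in Tg-TAC (median 933). The groups did not overlap, and the difference was -0.74, SE 0.21, adjusted p = 0.0149. Ppargc1a, the co-activator PGC-1 alpha of mitochondrial genes, fell in both fits (-0.81, SE 0.19, adjusted p = 0.00494). Ppara, the fatty acid sensor, fell (-0.96, SE 0.28, adjusted p = 0.0178, 12-library adjusted p = 0.0889) with every TAC library above the lowest sham library, Tg-Sham 5 at 247, and lost its call without Tg-TAC 4 (adjusted p = 0.0509).

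In the tricarboxylic acid (TCA) cycle and pyruvate oxidation 10 of 30 genes fell and none rose (median -0.31, 23 lower without Tg-TAC 6). Suclg2, a subunit of succinyl-CoA ligase, fell in both fits (-0.62, SE 0.13, adjusted p = 0.00259). Cs, citrate synthase, and Sdha, the flavoprotein of succinate dehydrogenase, fell (-0.46, SE 0.12, adjusted p = 0.0109, 12-library adjusted p = 0.092; -0.66, SE 0.16, adjusted p = 0.00566, 12-library adjusted p = 0.0641). Of 58 nuclear genes of respiratory complexes I to V 2 fell (median -0.19, 19 lower without Tg-TAC 6), among them Ndufs1, the largest subunit of complex I (-0.63, SE 0.16, adjusted p = 0.00767, 12-library adjusted p = 0.0821). Of 12 genes of the mitochondrial genome 5 fell (median -0.50, against 0.014 in Con hearts), and 8 without Tg-TAC 6. The share of reads from that genome was 17.7% to 27.9% in Tg-Sham and 13.1% to 19.6% in Tg-TAC, and these genes share reads with nuclear copies. mt-Co1, a core subunit of complex IV, did not pass (-0.37, SE 0.15, adjusted p = 0.0787). With the same total outside the mitochondrial genome in every library, the median of all genes was 0.028, 8.1% of all genes rose and 6.88% fell, and 5 of the 12 mitochondrial genes were lower there as well.

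Glucose genes went both ways. Of 29 genes of glycolysis, glycogen and glucose transport 11 rose and 7 fell (median 0.16, 11 and 9 without Tg-TAC 6). Pgk1, the ATP-forming phosphoglycerate kinase, was from 4646 to 5181 in Tg-Sham (median 4775) and from 5375 to 8043 in Tg-TAC (median 6697), without overlap. It rose by 0.43 (SE 0.081, adjusted p = 0.00119). The liver-type phosphofructokinase Pfkl and the lactate dehydrogenase Ldha rose (0.46, SE 0.092, adjusted p = 0.00194; 0.34, SE 0.073, adjusted p = 0.00264, 12-library adjusted p = 0.0644), each with Tg-TAC 3 as the single TAC library inside the sham range. Slc2a4, the insulin-regulated transporter GLUT4, fell (-0.64, SE 0.18, adjusted p = 0.0149, 12-library adjusted p = 0.0696) and lost the call without Tg-TAC 4 (adjusted p = 0.0587).

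In ketone, branched-chain amino acid and creatine metabolism 4 of 28 genes rose and 10 fell (median -0.35), and 4 rose and 18 fell without Tg-TAC 6. Bdh1, the enzyme that oxidizes beta-hydroxybutyrate, rose by 0.85 (SE 0.20, adjusted p = 0.00529, 12-library adjusted p = 0.0519), and Ckb, the brain-type creatine kinase, rose without overlap from 1283 to 1722 in sham to 1746 to 2508 in TAC (0.53, SE 0.12, adjusted p = 0.0042). Acadsb, a dehydrogenase of isoleucine breakdown, was from 4201 to 4872 in Tg-Sham (median 4458) and from 2613 to 4468 in Tg-TAC (median 2857). Tg-TAC 6 was inside the sham range. Acadsb fell by 0.57 log2 units (SE 0.10, adjusted p = 0.000789), and Ppm1k, the phosphatase that activates branched-chain keto acid oxidation, fell by 1.06 (adjusted p = 0.00451).

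Of 24 sirtuin and NAD genes 2 rose and 3 fell (median -0.08), and 5 rose and 7 fell without Tg-TAC 6. Over all genes 7.91% rose and 8.77% fell, and 13.4% and 14.9% without Tg-TAC 6. Nmrk2, the muscle nicotinamide riboside kinase that makes NAD by a salvage route, was from 170.2 to 422 in Tg-Sham (median 215) and from 63.6 to 4976 in Tg-TAC (median 1946). Tg-TAC 6 lay below all sham libraries and the other 5 above. Its difference was 2.65, SE 0.71, adjusted p = 0.012, 12-library adjusted p = 0.0863. Nampt, the rate-limiting enzyme of the nicotinamide salvage route, fell (-0.89, SE 0.21, adjusted p = 0.00545, 12-library adjusted p = 0.0522), with Tg-TAC 6 above all sham libraries. Parp1, a nuclear enzyme that consumes NAD, fell in both fits (-0.39, SE 0.082, adjusted p = 0.00267).

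Of 38 antioxidant and glutathione genes 9 rose and none fell (median 0.10), and 13 rose and 3 fell without Tg-TAC 6. Txn1, thioredoxin 1, was from 994 to 1424 in Tg-Sham (median 1168) and from 1454 to 1635 in Tg-TAC (median 1560). All 6 TAC libraries were above all 6 sham libraries, and the difference was 0.39, SE 0.10, adjusted p = 0.00861. Gpx8, a peroxidase of the endoplasmic reticulum, and Srxn1, which repairs oxidized peroxiredoxins, rose in both fits (0.65, SE 0.11, adjusted p = 0.000525; 0.62, SE 0.15, adjusted p = 0.00713). Sod2, the superoxide dismutase of mitochondria, did not pass (-0.32, SE 0.14, adjusted p = 0.108). Of 12 NADPH and monoamine oxidase genes none rose and 1 fell, and 4 rose and 2 fell without Tg-TAC 6. The shares over all genes were 7.91% and 8.77%, and 13.4% and 14.9% without Tg-TAC 6. Nox4, a hydrogen peroxide-forming oxidase, ranged from 40.4 to 158 in Tg-Sham (median 69.3) and from 18.5 to 976 in Tg-TAC (median 298), and its difference was 1.58, SE 0.58, adjusted p = 0.0594. It passed without Tg-TAC 6 (adjusted p = 0.000361). Cybb, the phagocyte oxidase, gave -0.22, SE 0.26, adjusted p = 0.597.

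The stress response led by the transcription factor ATF4 had 7 of 27 genes higher and 1 lower (median 0.23, 13 and 2 without Tg-TAC 6). Atf4 rose from a sham range of 1380 to 1817 to 1638 to 2948 (0.58, SE 0.13, adjusted p = 0.00387). Vldlr, a lipoprotein receptor, was the lower member (-0.75, SE 0.15, adjusted p = 0.00214). Gdf15, a secreted stress signal, did not pass (1.61, SE 0.85, adjusted p = 0.187), at 19.7 in Tg-TAC 6 and 2944 in Tg-TAC 5. Of 20 endoplasmic reticulum chaperones none rose and 2 fell (1 and 3 without Tg-TAC 6), where 8.77% of all genes fell (14.9% without Tg-TAC 6).

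Calcium handling genes had 4 of 22 members higher and 9 lower (median -0.19, 4 and 10 without Tg-TAC 6). Pln, the inhibitor of the calcium pump, fell (-0.76, SE 0.18, adjusted p = 0.00556, 12-library adjusted p = 0.0677), and Atp2a2, that pump (SERCA2), was from 282300 to 390300 in Tg-Sham (median 355600) and from 107600 to 483600 in Tg-TAC (median 218200). Tg-TAC 6 was above all sham libraries and the other 5 below. The difference was -0.70, SE 0.21, adjusted p = 0.0222, 12-library adjusted p = 0.144, with no call without Tg-TAC 4 or Tg-TAC 5 (adjusted p up to 0.0848). Camk2b, a subunit of the calcium-dependent kinase CaMKII, was from 424 to 568 in Tg-Sham (median 462) and from 122 to 394 in Tg-TAC (median 275). Its groups did not overlap, and it fell by 0.89 log2 units (SE 0.18, adjusted p = 0.00207). Cacna1c, the pore of the L-type calcium channel, fell in both fits (-0.56, SE 0.14, adjusted p = 0.00841). Ryr3, a ryanodine receptor outside the list, rose without overlap from 29.5 to 59.5 in sham to 62.4 to 349 in TAC (1.67, SE 0.39, adjusted p = 0.00451).

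Of 25 cardiac ion channel genes 12 fell and none rose (median -0.50), with 5 lower in both fits, and 14 fell and 1 rose without Tg-TAC 6. Abcc9 (mm39 chromosome 6, 142533588 to 142648041), the sulfonylurea receptor SUR2 of the ATP-sensitive potassium channel, was from 10770 to 13530 in Tg-Sham (median 12030) and from 2589 to 10560 in Tg-TAC (median 4720). All TAC libraries lay below all sham libraries, with Tg-TAC 6 closest at 10560. Abcc9 fell by 1.26 log2 units (SE 0.20, adjusted p = 0.000346). Kcnj5, a subunit of the acetylcholine-gated potassium channel, and Kcnj12, a background inward rectifier, fell (-1.18, SE 0.24, adjusted p = 0.00235, 12-library adjusted p = 0.0545; -0.74, SE 0.15, adjusted p = 0.00236). Kcnd2, a pore subunit of the transient outward current, did not pass with all libraries (-0.86, SE 0.32, adjusted p = 0.0605) and passed without Tg-TAC 6 (adjusted p = 0.000656).

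Receptors and cyclic AMP genes had 3 of 19 members higher and 7 lower (median -0.21, 3 and 9 without Tg-TAC 6). Adra1a, the alpha-1A adrenergic receptor, was from 367 to 568 in Tg-Sham (median 434) and from 48.5 to 286 in Tg-TAC (median 166). The groups did not overlap, and Adra1a fell by 1.60 log2 units (SE 0.31, adjusted p = 0.00134). Adcy6, the adenylyl cyclase of muscle cells, and Chrm2, the muscarinic receptor, fell in both fits (-0.54, SE 0.14, adjusted p = 0.0104; -0.55, SE 0.15, adjusted p = 0.011). Adrb1, the main beta receptor of the heart, did not pass (-0.45, SE 0.20, adjusted p = 0.105), with Tg-TAC 6 above all sham libraries, and passed without it (adjusted p = 0.00167). Of 18 genes of the intercalated disc 2 rose and 4 fell (3 and 6 without Tg-TAC 6). Des, the intermediate filament desmin that anchors there, rose (0.90, SE 0.17, adjusted p = 0.0013). Dsg2, a desmosomal cadherin, was from 2565 to 3186 in Tg-Sham (median 2932) and from 1204 to 2315 in Tg-TAC (median 1302). There was no overlap, and Dsg2 fell by 1.02 log2 units (SE 0.17, adjusted p = 0.000569). Gja1, the gap junction protein connexin 43, did not pass (-0.28, SE 0.19, adjusted p = 0.304). Among 21 cardiac transcription factors 1 rose and 7 fell (2 and 7 without Tg-TAC 6), Gata6 among those that fell (-0.39, SE 0.11, adjusted p = 0.0131), while Gata4 did not pass (0.16, SE 0.10, adjusted p = 0.249).

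Cytoskeleton and microtubule genes had 14 of 26 members higher and none lower (median 0.54), 8 of them in both fits, and 18 higher without Tg-TAC 6. Tubb3, a beta-tubulin of nerve cells, had the largest increase among genes called in both fits that had a mean of at least 100 and every TAC library above the sham mean, with counts from 11.3 to 43.9 in Tg-Sham (median 28.6) and from 26.6 to 347 in Tg-TAC (median 129.8). Tg-TAC 6 was inside the sham range and Tg-TAC 4 was the highest. Its difference was 2.45, SE 0.62, adjusted p = 0.0081. Tubb2a, another beta-tubulin, and Vim, the filament vimentin, rose in both fits (1.14, SE 0.25, adjusted p = 0.00372; 0.76, SE 0.22, adjusted p = 0.0161). Lmna, the nuclear lamin A/C, was from 3112 to 3777 in Tg-Sham (median 3296) and from 3883 to 6354 in Tg-TAC (median 5302). Its groups did not overlap, and it rose by 0.65 (SE 0.12, adjusted p = 0.00113).

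Of 25 cell cycle genes 3 rose and none fell (median 0.68, against 0.17 in Con), while 8 rose and 1 fell without Tg-TAC 6. Over all genes 7.91% rose, and 13.4% without Tg-TAC 6. Ccna2, the S-phase cyclin, was from 28.9 to 59.6 in Tg-Sham (median 45) and from 39.3 to 211 in Tg-TAC (median 161), with Tg-TAC 6 inside the sham range. The difference was 1.56, SE 0.51, adjusted p = 0.0315, and the call was lost without Tg-Sham 3, 4 or 5 or without Tg-TAC 1, 2, 4 or 5 (adjusted p up to 0.0757). Mki67, the Ki-67 antigen of dividing cells, did not pass (1.01, SE 0.49, adjusted p = 0.157). Of 22 immediate early genes 4 rose (7 without Tg-TAC 6), with Ier2 among them. Ier2 was from 264 to 404 in Tg-Sham (median 317) and from 413 to 692 in Tg-TAC (median 444), without overlap (0.62, SE 0.13, adjusted p = 0.00259). Of 19 clock genes 3 fell (5, with 1 higher, without Tg-TAC 6), where 8.77% of all genes fell (14.9% without Tg-TAC 6). Nr1d2, the repressor REV-ERB beta, was among the clock genes that fell (-0.74, SE 0.22, adjusted p = 0.0192). It lost its call without Tg-TAC 4 (adjusted p = 0.0566). The PAR-bZIP factor Hlf fell too (-1.50, SE 0.41, adjusted p = 0.0135, 12-library adjusted p = 0.0531). Among 27 genes of cell death and autophagy 4 rose and 6 fell (8 and 8 without Tg-TAC 6). Bax, which permeabilizes the outer mitochondrial membrane, rose without overlap from 143 to 175 in sham to 204 to 327 in TAC (0.61, SE 0.13, adjusted p = 0.00259), and Bcl2l11, a BH3-only initiator of cell death, fell (-0.77, SE 0.20, adjusted p = 0.0102).

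**Figure D3:**
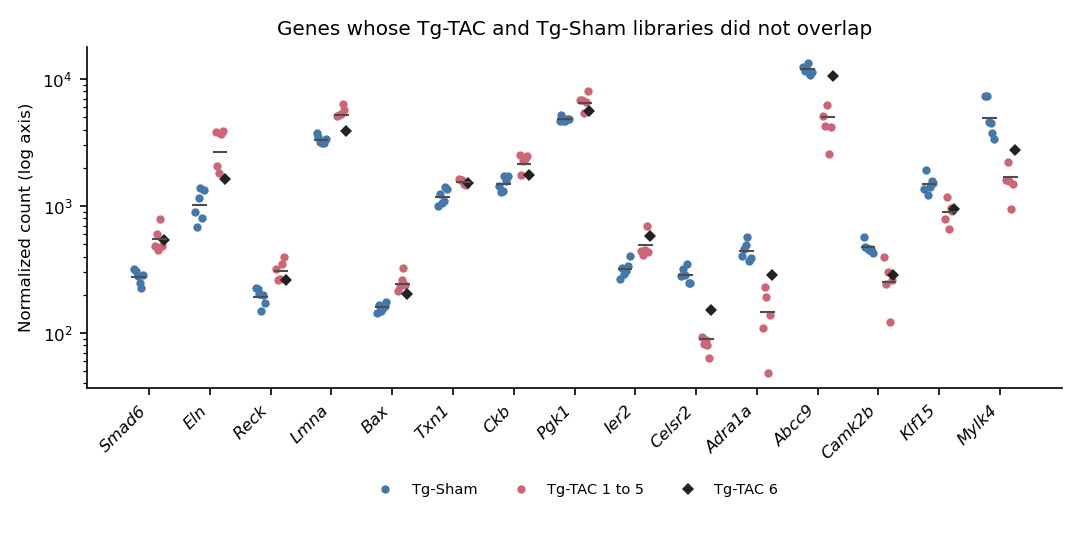
Normalized counts (log axis) of 15 genes whose 6 Tg-TAC libraries (red, with Tg-TAC 6 as a black diamond) did not overlap with the 6 Tg-Sham libraries (blue; bars, geometric mean of 6 libraries). Smad6 goes from 225 to 317 in sham to 446 to 789 in TAC and Celsr2 from 247 to 348 down to 63.3 to 152.

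Outside the lists, the largest ranked differences with every TAC library on 1 side of the sham mean fell on genes of varied roles. Celsr2 (ENSMUSG00000068740, mm39 chromosome 3, 108298167 to 108323383), a cadherin of planar cell polarity, was from 247 to 348 in Tg-Sham (median 282) and from 63.3 to 152 in Tg-TAC (median 85.1). The groups stayed apart with Tg-TAC 6 included. Celsr2 fell by 1.66 log2 units (SE 0.19, adjusted p = 8.39e-07). Plxnb1, a semaphorin receptor, Gfra1, a co-receptor for the neurotrophic factor GDNF, and Ccbe1, a factor for lymphatic vessel growth, fell in both fits (-1.59, SE 0.28, adjusted p = 0.000789; -1.36, SE 0.21, adjusted p = 0.000295; -1.40, SE 0.29, adjusted p = 0.00255). Lvrn, a membrane aminopeptidase, fell without overlap from 128 to 240 in sham to 11.2 to 118 in TAC (-2.09, SE 0.50, adjusted p = 0.00547). Aldh1l2, the mitochondrial folate dehydrogenase that makes NADPH, fell in both fits (-1.30, SE 0.29, adjusted p = 0.00395).

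Among the ranked increases were Nkd2, a brake on Wnt signalling, and Panx1, a channel that releases ATP. Panx1 was from 34 to 127 in Tg-Sham (median 49.5) and from 89 to 474 in Tg-TAC (median 315), and Tg-TAC 6 was the single TAC library inside the sham range. They rose by 2.30 (SE 0.42, adjusted p = 0.000956) and 2.14 (SE 0.38, adjusted p = 0.000739). Sox9, a transcription factor of matrix-forming cells, and Slc1a3, a glutamate transporter, rose as well (1.65, SE 0.36, adjusted p = 0.00316; 1.67, SE 0.40, adjusted p = 0.00524).

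Markers of other cell types were called in differing shares, beside the 16.7% of all genes. Of 10 Schwann cell markers 4 fell (median -0.91, 5 lower without Tg-TAC 6), Sox10 among them (-1.98, SE 0.51, adjusted p = 0.0088, 12-library adjusted p = 0.112). Sox10, the lineage factor of these glia, was listed at 0 in Tg-TAC 4. Of 12 smooth muscle and pericyte markers 3 rose and 2 fell (median 0.059), with the same counts without Tg-TAC 6. Of 15 endothelial markers 1 rose and 1 fell, with and without Tg-TAC 6, and Pecam1, an adhesion molecule of all endothelium, gave 0.18, SE 0.073, adjusted p = 0.0867. Of 9 lymphocyte markers 2 rose, and 6 without Tg-TAC 6. One was Cd79b, a part of the B cell receptor, with counts from 4.53 to 12.8 in Tg-Sham (median 5.87) and from 12.7 to 278 in Tg-TAC (median 30.1) (2.21, SE 0.57, adjusted p = 0.00895, 12-library adjusted p = 0.0521), and the highest value was that of Tg-TAC 4. Cd79a, its partner, was at most 23.6 in the other TAC libraries and 531.7 in Tg-TAC 4. Adipoq and Plin1, which mark fat cells, were 2678 and 2278 there and at most 29.7 and 31.5 in the other TAC libraries, and Msln of the mesothelium was 699 against at most 3.71. The lung marker Sftpc was listed at 0 in 6 of the 12 libraries. The part of these cells in other differences was not tested.

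Some short non-coding RNAs were lower after TAC. A list of small nuclear and structural RNAs, set up as a technical measure, had 6 tested members. Of these 3 fell and none rose, also without Tg-TAC 6, where 8.77% of all genes fell (14.9% without Tg-TAC 6). Rn7sk, the 7SK RNA that holds back transcription elongation, was from 1228 to 5235 in Tg-Sham (median 2758) and from 64.9 to 359 in Tg-TAC (median 81.6). The groups did not overlap, and Tg-TAC 6 at 180.4 lay with the other TAC libraries. Rn7sk fell by 4.52 log2 units (SE 0.41, adjusted p = 2.25e-08), the lowest difference of all tested genes. Scarna2 (-2.13, SE 0.59, adjusted p = 0.0133) and Snora73b (-1.70, SE 0.47, adjusted p = 0.0142) were the other members that fell. Gm54867, which is outside the list and was named from the ranking, fell as well (-3.38, SE 0.42, adjusted p = 6.58e-06). In Con hearts the Rn7sk difference was -6.03. The labels do not explain the S number that ends each library description. It was 8 to 13 in Tg-Sham and 1 to 5 or 12 in Tg-TAC. Tg-Sham 6 and Tg-TAC 2 both carry 12, with 5235 and 77.5 counts of Rn7sk. The number 12 recurs in other groups, so sharing it need not mean a shared preparation. The part of the S number in the Rn7sk difference was not tested.

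The TAC difference of Con hearts was set beside that of the Tg hearts, with no library in common, although both were fitted in 1 model. In Con 863 genes were called (5.3%), 431 higher (2.65%) and 432 lower (2.65%). With the same total outside the mitochondrial genome the Con split was 83.56% higher against 49.94% higher in the deposited scaling, while in Tg it was 54.08% against 47.42%. Of the 1288 genes that rose in Tg, 1218 had a positive difference in Con and 237 were among the 431 called higher there, and of the 1428 that fell 1348 were negative in Con and 263 were among the 432 called lower there. Over all tested genes the median Con difference was 0.0090 in the deposited scaling. The test of the difference between both TAC effects called 0 genes in limma, where 949 had an unadjusted p under 0.05 and the smallest adjusted p was 0.178. It called 0 in edgeR (928 unadjusted) and 2 in DESeq2.

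The genes with the smallest p in that test were Abat, the GABA transaminase, Gm5540, Acap3, an Arf GTPase-activating protein, Atp8a2, a lipid flippase, and Gm28437. Abat differed by -0.43 in Tg and 1.08 in Con, a difference of -1.51 (SE 0.29, unadjusted p = 1.09e-05, adjusted p = 0.178). Acap3 rose in Tg (0.37, SE 0.093, adjusted p = 0.00739) and was lower by 0.22 in Con without passing. Smad6 was 0.99 in Tg and 0.31 in Con (unadjusted p = 0.000503, adjusted p = 0.616), Eln 1.38 and 0.31, and Gfra1 -1.36 and -0.38. Acta1 was 1.63 in Tg and 3.54 in Con, the reverse order. None of these differences between genotypes passed after adjustment.

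**Figure D4:**
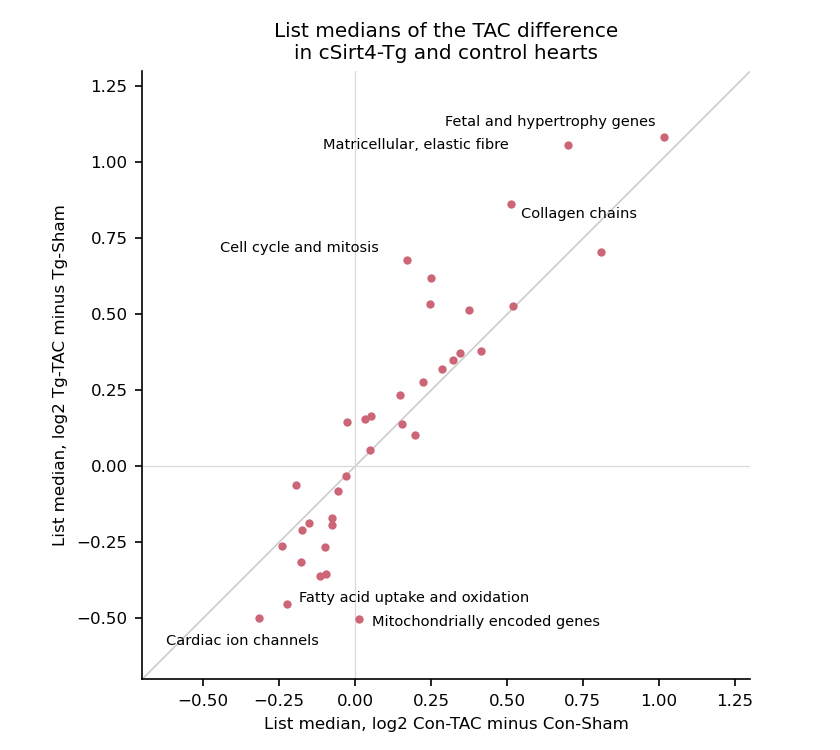
Median log2 TAC difference of each of 36 gene lists in Con hearts (x axis) and Tg hearts (y axis), 1 point per list, with the line of equal values. The fetal list lies close to the line (1.02 and 1.09), while the collagens (0.51 and 0.86), cell cycle genes (0.17 and 0.68) and mitochondrially encoded genes (0.014 and -0.50) lie off it.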

How the data were processed

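RNA sequencing of 36 whole mouse hearts was used, and the 12 cSirt4-Tg vehicle libraries make up the comparison. Hearts were snap frozen and RNA was taken with the RNeasy Fibrous Tissue Mini Kit and made into directional libraries, per the labels' protocols. The submitters' processing notes name Trim Galore, STAR and the build mm39, with no versions. The deposited signal values are gene read counts that the authors divided by 1 factor per library. Whole reads were recovered from 100% of them (tolerance 0.01 read). The labels state 6 mice per group. The p-values of the 36-library fit rest on 1 spread pooled over the mice of all 6 groups, which may differ between groups. Those of the 12-library fit rest on the spread between the 12 Tg mice. That fit called 712 genes, against 2716 in the 36-library fit.

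Genes that reached a value of 10 in 6 or more libraries entered the test (16275 of 25626 listed). log2(value + 1) was fitted with limma 3.58.1 (R 4.3.3) on 6 group means, with a trended, robust prior, and p-values were adjusted by Benjamini-Hochberg over all tested genes (threshold 0.05, 30 residual degrees of freedom). The fit was tried on simulated counts with the same spread in every group and no outlying library. That simulation therefore does not cover unequal spreads or libraries such as Tg-TAC 4 and 6. Alternatives were a fit on the 12 libraries, count models of the recovered reads (edgeR 4.0.16, DESeq2 1.42.0), other scalings, filters and pseudocounts, array weights, a replicate block, the number in the library name and leaving out each library. Fits without Tg-TAC 4 and 6 together were chosen after values were seen. Correlations of log2 values between libraries of a group were 0.954 to 0.975 in Tg-Sham and 0.874 to 0.976 in Tg-TAC.

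The comparison and its 50 gene lists (1041 different genes, 980 tested) were chosen with earlier results of these data known, so no list is tested. Named genes are Sirt4, up to 15 higher and 15 lower genes by size of change (called in both fits, mean of at least 100, every TAC library on 1 side of the sham mean), core members of each list, up to 4 called members with the smallest adjusted p, and the 5 genes with the smallest p for the difference of TAC effects. Some genes that the rule takes are not reported here.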

Additional observations from a re-analysis of the deposited data

Results flagged for a closer look

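In groups of 6, a library was singled out where its gap to the nearest of the others, over the range of the group, passed Dixon's 95% critical value. Chance does so in about 1 in 20 groups. Of 108 list levels and library measures 15 passed, and of 272 gene values 39 did, 28 of them in Tg-TAC 6.

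Tg-TAC 6 stood apart in mean log2(value + 1) of the fetal genes (9.832), collagen processing (8.982), TGF-beta signalling (8.871), the ATF4 response (8.569) and adrenergic genes (10.97). Its normalized counts stood apart in genes of muscle stress, with 3535 for Nppa, 44110 for Ankrd1, 5537 for Enah, 8744 for Nebl, 2315 for Dsg2, 8235 for Cacna1c, 63.59 for Nmrk2 and 19.66 for Gdf15. In matrix genes it had 9296 for Sparc, 10590 for Col4a2, 441.7 for Col8a1, 3555 for Bgn, 870.6 for Postn, 133 for Thbs4, 38.15 for Timp1 and 2137 for Ccn2. The ligands Tgfb2 and Tgfb3 stood at 232.4 and 367.7, and the factors Scx and Meox1 at 246.3 and 318. In metabolism and the cell cycle the counts were 11480 for Acacb, 4468 for Acadsb, 4140 for Ppm1k, 12060 for Vldlr, 1768 for Parp1, 437 for Gpx8, 152.6 for Mki67 and 39.31 for Ccna2.

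Tg-TAC 4 stood apart in lymphocyte (9.062), neutrophil and mast cell (7.203) and mesothelial markers (7.958), with 531.7 for Cd79a, 278.4 for Cd79b and 0 for Sox10, and 11.84% of its reads fell on Rn18s-rs5. Tg-TAC 2 had the most reads (55.4 M), Tg-TAC 3 stood apart in smooth muscle markers (11.19) and Tg-TAC 1 in erythroid markers (8.932).

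Among sham libraries, Tg-Sham 1 stood apart in proteoglycans (9.798), Inhba (123.7) and Tgfb3 (799.8), and Tg-Sham 2 in endothelin and renin-angiotensin genes (8.173). Tg-Sham 3 did so in Ankrd1 (96840) and Ccbe1 (205.7), Tg-Sham 4 in Gpx8 (362.2), Tg-Sham 5 in Myh6 (533200), Acacb (6994) and Ppara (247.2), and Tg-Sham 6 in metalloproteinases (8.57).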

How the results depend on the processing

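The count of 2716 genes called in Tg was 4926 with array weights, 712 in the fit on the 12 libraries alone, and from 1693 (without Tg-TAC 4) to 4606 (without Tg-TAC 6) when 1 library was left out. Every other setting lay from 2043 (number in the library name as covariate) to 3672 (without Tg-TAC 4 and 6, chosen after values were seen). The test of the difference of TAC effects called 0 genes, 2 with DESeq2, 3 with array weights and 0 in the other settings. For Con the count of 863 was 1438 with DESeq2, 3157 with array weights, 166 with the name number as covariate, 524 without the filter on low values and 24 in the libraries named 7 to 14, and from 134 (without Con-TAC 4) to 1543 (without Con-TAC 1) when 1 library was left out. Some of these settings held fewer libraries, and the cause of the changes was not tested. With the replicate block the counts were 2574 in Tg, 739 in Con and 0 for the difference, and the exact p for Sirt4 was 0.469, against 0.565 without it. Libraries with the same number had correlations of deviations from -0.161 to 0.311, and 1 of 6 correlated best with its own number, so the numbers were not taken as pairs. Of the 112 named genes called, 96 kept the call in all 12 fits without 1 library and 38 lost it in the fit on the 12 libraries. No named gene that was called changed its direction. The medians of 6 lists changed sign in some setting. They were those of apoptosis and autophagy (-0.031), endothelial (0.0030), endothelin and renin-angiotensin (0.053), smooth muscle (0.059), mesothelial (0.41, without Tg-TAC 4 among others) and neutrophil and mast cell genes (0.58, with array weights or a minimum of 50). Depth limits genes with low counts most in Tg-TAC 4, which had 14.8 M reads.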

Other observations

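Among 38 genes of cytosolic ribosomal proteins 1 rose and none fell in the hearts labelled cSirt4-Tg (median log2 difference 0.15, 3 higher without Tg-TAC 6). None of the 7 erythroid markers was called there (median 0.28, 4 higher among the libraries named 7 to 14), while 6 were higher in Con-TAC than in Con-Sham (median 1.20). The difference between genotypes passed for none of these genes. Fgf21, a hormone of the mitochondrial stress response, and Sln, a small regulator of the calcium pump, were listed with values too low to be tested.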
